A study of Mus musculus with 18 samples.

Results

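The genes described here are the transcription factor Myc and 32 genes of ribosome biogenesis, the nucleolar pathway that makes ribosomes. They were chosen by symbol, from a list of 33 names, and all 33 were found among the 23652 entries of the deposited expression table. They include subunits of RNA polymerase I, core proteins of the small nucleolar ribonucleoproteins (snoRNPs), nucleolar phosphoproteins, factors that mature the 40S subunit and factors that mature the 60S subunit. The rule itself uses symbols and no measured value. The table writes symbols in capitals, such as MYC, NOP56, NOP58 and POLR1A, and the mouse spelling is used here.

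Ribosome biogenesis begins with transcription of the ribosomal DNA by RNA polymerase I in the nucleolus. The long precursor is methylated at riboses by box C/D snoRNPs and pseudouridylated by box H/ACA snoRNPs, and is cut and folded by the small subunit (SSU) processome and by the large subunit assembly factors. Myc, which binds DNA as a dimer with Max at CACGTG and related sites, is known as a transcriptional activator of many genes of this pathway. The H/ACA core proteins Nop10, Nhp2 and Gar1 are also known as components of the telomerase ribonucleoprotein, whose catalytic subunit is encoded by Tert.

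Messenger RNA was measured in 18 libraries of mouse thyroid cells sorted for YFP at 20 weeks, from 9000 to 20000 cells each. In the labels every library is called untreated (naïve), its cells thyrocytes and its source a thyroid tumour, and that holds for the pools as well. K5-Tert tumours carried BrafV600E and the K5-Tert transgene, named for the keratin 5 promoter, which in mice is known for its activity in basal epithelial cells (n = 4). Tert-123 tumours carried BrafV600E and the Tert promoter change Tert-123C>T (n = 7). Braf tumours carried BrafV600E alone (n = 4). BrafV600E encodes a constantly active kinase of the MAPK pathway and is shared by all 15 tumours. The other 3 libraries are single pools without the Braf mutation, of the genotypes K5-Tert alone, Tert-123C>T alone and wild type, and the number of mice in each was not given. The labels do not say that libraries of a group came from separate animals, so every p-value below measures only the spread between these libraries. Strain, sex, Cre driver and batch were not given in the sources used here.

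Values are taken as TPM (transcripts counted per length and scaled to a fixed total), since each column sums to 1000000. How deeply a library was read cannot be seen from them. Rpph1, the RNA of RNase P, took 43.7% to 68.8% of the TPM of a library. Tert was 73.9, 11.2, 19.0 and 53.4 TPM in K5-Tert tumours, 2.65 to 6.23 TPM in Tert-123 tumours and 3.78 to 5.12 TPM in Braf tumours, and 125, 8.79 and 2.15 TPM in the K5-Tert, Tert-123 and wild-type pools. K5-Tert tumours 2, 3 and 4 stood apart from the other tumours. They had Malat1, a nuclear noncoding RNA, at 1191, 1908 and 1050 TPM, against 5902 TPM in K5-Tert tumour 1, 5072 to 8420 TPM in Tert-123 tumours and 5762 to 7496 TPM in Braf tumours. The summed level of 16 thyrocyte markers was 1535 to 3521 TPM in tumours and 28050 to 35490 TPM in pools, while that of 5 markers of lung alveolar type 2 cells was 5112 to 13560 TPM in tumours and 58.2 to 183 TPM in pools. The Tert-123 pool held more of other cells: its T cell markers summed to 181 TPM, against 1.22 TPM in the K5-Tert pool and 9.93 TPM in the wild-type pool, and its endothelial markers to 1755 TPM, against 192 TPM and 590 TPM. Markers of the labelled cell type did not move together. The thyroid transcription factor Pax8 was at 91.6, 16.8, 30.2 and 30.4 TPM in K5-Tert tumours and 67.8 to 107 TPM in Braf tumours, so it was low in the same K5-Tert tumours 2, 3 and 4. Nkx2-1 was low there too, at 137, 52.4, 69.3 and 73.1 TPM against 174 to 222 TPM. Thyroglobulin (Tg) went the other way, at 84.1, 272, 174 and 269 TPM in K5-Tert tumours and 96.5 to 257 TPM in Braf tumours. The summed level of 11 macrophage markers was 582 to 4346 TPM in K5-Tert, 252 to 5828 TPM in Tert-123 and 706 to 1153 TPM in Braf tumours, and 73.2 to 327 TPM in pools. Markers of cycling cells overlapped between the tumour groups (42.4 to 95.4, 49.97 to 111.5 and 58.9 to 82.7 TPM, in the same order). The part of these differences in the results below was not tested, and in bulk RNA fewer cells of a type and less RNA per cell cannot be told apart.

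The members covered a wide range of levels per length. Npm1, the histone and ribosomal protein chaperone nucleophosmin, was the highest at 138 to 309 TPM over the 18 libraries, and Ncl, the rRNA-binding protein nucleolin, followed at 48.3 to 135 TPM. The box H/ACA protein Nhp2 was at 19.8 to 62.2 TPM. Most factors of 40S and 60S maturation lay between these and the low end, where Nip7, a factor of 60S maturation, held 1.13 to 4.90 TPM. At least 10 TPM in 4 or more tumours was needed for the test between tumours, which 25 of the 33 members met. The 8 below it were Nip7, Bysl, Utp15, Wdr12, Rrp1b, Polr1b, Rrp12 and Heatr1. They were tested with a filter at 1 TPM instead. Among K5-Tert tumours Nop2 varied least, with an SD of 4.42% of its mean, and Wdr75 most, with 60.1%. Rrp1b was listed at 0 in the Tert-123 pool, and no other member was at 0 in any library.

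Myc was at 25.5, 13.1, 20.6 and 15.2 TPM in K5-Tert tumours. It ran from 13.9 over a median of 19.3 to 31.7 TPM in Tert-123 tumours, and held 16.3, 27.5, 26.8 and 25.6 TPM in Braf tumours. The 3 groups of tumours overlapped. All 15 tumours lay below the pools, where the K5-Tert pool had 77.8 TPM of Myc, the Tert-123 pool 54.5 TPM and the wild-type pool 37.1 TPM. Between tumour groups the difference in mean log2(TPM + 1) of Myc was -0.37 for K5-Tert against Braf tumours (two-sided exact permutation test over 70 arrangements, p = 0.1714, p = 0.5143 adjusted over the 3 pairs). The difference was -0.24 for Tert-123 against Braf tumours (exact p = 0.3667, adjusted 0.55, 330 arrangements) and -0.13 for K5-Tert against Tert-123 tumours (exact p = 0.6333, adjusted 0.6333). None of the 3 differences exceeded the spread between tumours, and the first and the third turned positive under scalings given with the other alternatives.

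**Figure D1:**
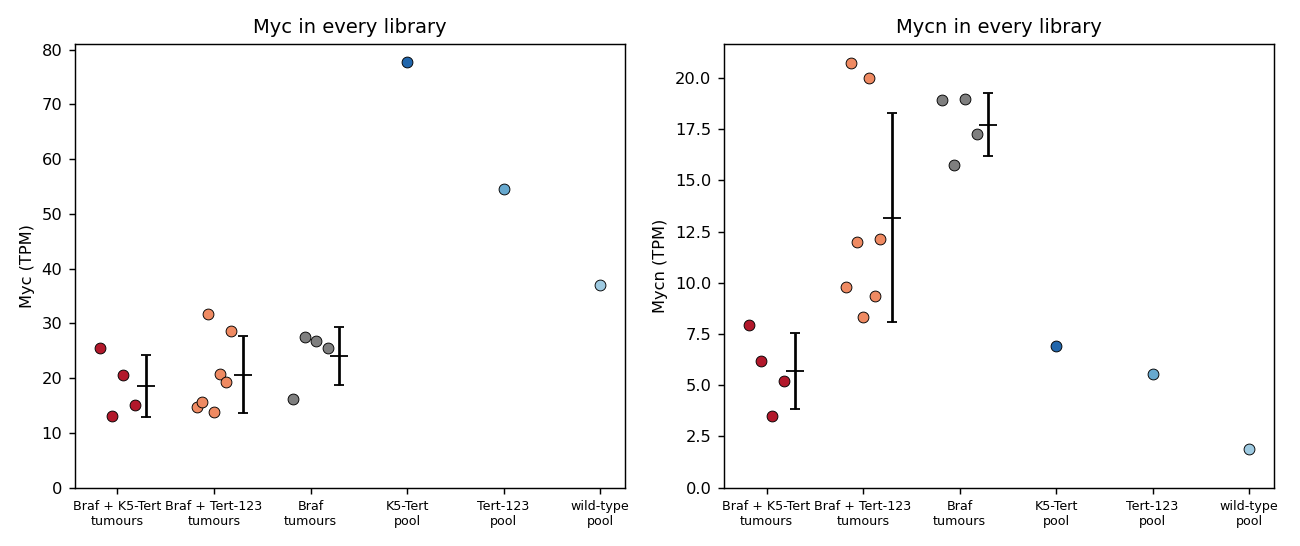
Myc (left) and its paralogue Mycn (right) in TPM in every library, 1 point per library, with the mean and SD beside each group of tumours. All 15 tumours lie below the 3 pools for Myc. For Mycn the 4 K5-Tert tumours (3.49 to 7.93 TPM) lie below the 4 Braf tumours (15.75 to 18.96 TPM).

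Setting K5-Tert tumours against Braf tumours addresses the effect of the K5-Tert transgene beside the Braf mutation. Of 25 members tested, 6 were lower in K5-Tert tumours and 0 higher, where 21.9% of all 7498 genes tested were lower and 0.587% higher (limma on log2(TPM + 1), Benjamini-Hochberg adjusted p under 0.05). The share of members called lower was thus close to the share of all genes. The 6 were the snoRNP proteins Nop58 and Gar1, the SSU processome proteins Wdr43 and Utp20, the 60S factor Rrs1 and the snoRNP chaperone Nolc1. Fold changes of 23 of the 25 were negative as deposited, with a median of -0.56, beside a median of -0.48 over all genes. In the non-overlap of levels, 8 of the 33 members, 5 of them among the 25 tested, were lower in every K5-Tert tumour than in every Braf tumour, where 16.2% of all genes tested were (1.11% were higher in every K5-Tert tumour, and 0 members). Those 5 were Nop56, Nop2, Gar1, Nolc1 and Bop1, and the other 3 were Wdr12, Rrp12 and Polr1b.

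The shift of all genes depends on the scaling. With factors of the type of the trimmed mean of M values (TMM), which set the bulk of genes level between libraries, the median of all genes was 0.02 and that of the members -0.05. Then 1 member was lower (Rrs1, log2 -0.39, adjusted p = 0.04333 in limma) and 1 higher (Polr1c, log2 0.53, adjusted p = 0.03314), where 8.75% of all genes were lower and 6.5% higher. The fold changes as deposited therefore stand beside a median of -0.48 over all genes. K5-Tert tumours 1, 2, 3 and 4 were also set singly against the mean of the Braf tumours. The member medians were -0.09, -1.02, -0.42 and -0.72, and those of all genes 0.03, -0.93, -0.29 and -0.74. Tert was at 73.9, 11.2, 19.0 and 53.4 TPM in the same order. The tumour with the most Tert thus had the highest member median, and a link with the level of Tert was not tested. K5-Tert tumours 2 and 4 also had Rpph1 at 68.8% and 67.7% of TPM. It was at 58.3% and 55.4% in K5-Tert tumours 1 and 3 and 54.2% to 62.6% in Braf tumours. Tert-123 tumour 1 had Rpph1 at 67.4%, a member median of -0.45 and an all-gene median of -0.32. Rescaled without Rpph1, 7 of 33 members and 2062 of 10506 genes were lower in K5-Tert than in Braf tumours. The medians were then -0.41 and -0.38. Without K5-Tert tumours 2 and 4, 0 of the 25 members and 16 of all 7498 genes were lower.

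**Figure D2:**
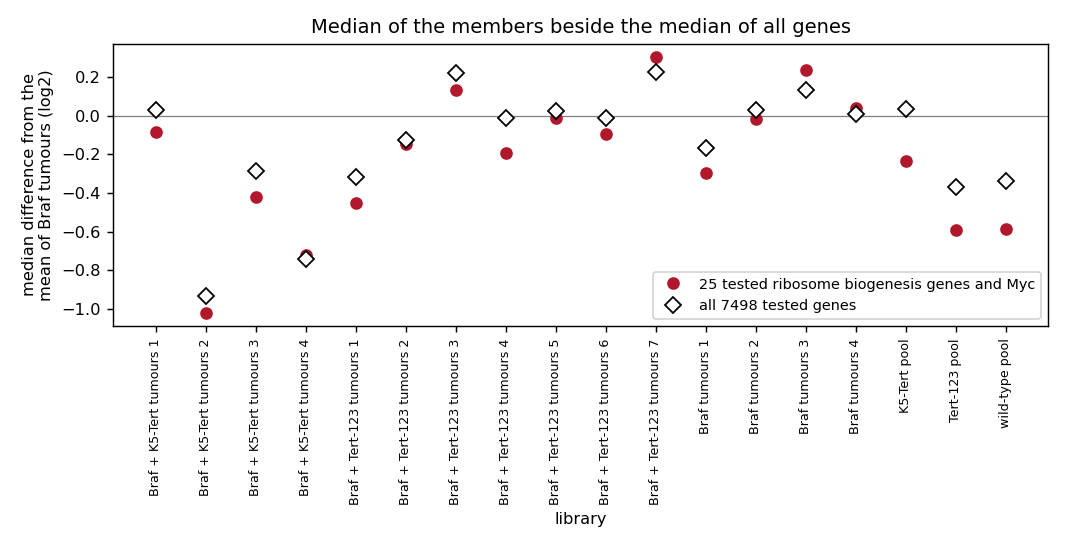
Median difference from the mean of the Braf tumours (log2 scale) in each library, for the 25 tested members (filled) and for all 7498 tested genes (open). Both medians move together across libraries, from -1.02 and -0.93 in K5-Tert tumour 2 to 0.30 and 0.23 in Tert-123 tumour 7.

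RNA polymerase I makes the rRNA precursor. Its largest subunit Polr1a held 14.9, 5.18, 7.89 and 6.15 TPM in K5-Tert tumours and 10.5, 15.2, 16.0 and 14.2 TPM in Braf tumours, a log2 fold change of -0.74 ± 0.28 (SE) that did not pass (adjusted p = 0.06035, limma). Polr1b, the second-largest subunit, was at 1.82 to 3.58 TPM in K5-Tert tumours and 4 to 7.38 TPM in Braf tumours, with no overlap, and did not pass with the filter at 1 TPM (log2 -0.70, adjusted p = 0.07362). Polr1c, a subunit shared with RNA polymerase III, held 29.9, 17.4, 23.1 and 18.9 TPM in K5-Tert tumours and 18.1, 17.9, 25.3 and 26.1 TPM in Braf tumours. As deposited its fold change was 0.02, which is 0.50 above the median of all genes.

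The box C/D proteins form the core of the snoRNPs that carry out 2'-O-methylation of rRNA. Nop58 was at 27.4, 12.4, 17.8 and 13.3 TPM in K5-Tert tumours, against 26.6, 35.1, 43.4 and 39.3 TPM in Braf tumours, and only K5-Tert tumour 1 reached the range of the Braf tumours. It fell by 1.03 on the log2 scale (SE 0.34, adjusted p = 0.03923, limma). This is 0.55 below the median of all genes, and it did not pass after TMM-type scaling (log2 -0.53, adjusted p = 0.1908). Its partner Nop56 was at 13.5 to 23.4 TPM in K5-Tert tumours and 24.8 to 37.3 TPM in Braf tumours (log2 -0.60, adjusted p = 0.08626). The methyltransferase Fbl, fibrillarin, was at 33.9, 21.6, 42.3 and 18.5 TPM in K5-Tert tumours and 25.7 to 39.6 TPM in Braf tumours (log2 -0.23, adjusted p = 0.5252), with overlapping groups.

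The box H/ACA proteins, which with dyskerin pseudouridylate rRNA and sit on the telomerase RNA, did not move together. Gar1 was at 9.13, 2.79, 8.92 and 6.07 TPM in K5-Tert tumours, against 10.1, 11, 16.6 and 16.7 TPM in Braf tumours, so that all 4 lay below. It fell by 0.99 (SE 0.34, adjusted p = 0.04384, limma), and did not pass after TMM-type scaling (log2 -0.53, adjusted p = 0.1927). Since all 4 K5-Tert tumours were under 10 TPM, Gar1 met the filter through the other tumours, and it did not pass with the filter at 1 TPM (adjusted p = 0.05154) or with none (adjusted p = 0.0821). Nop10 was at 34.3, 34.3, 43.5 and 57.4 TPM in K5-Tert tumours and 26.3, 34.8, 52.9 and 40.1 TPM in Braf tumours (log2 0.14, adjusted p = 0.7503). Nhp2 was at 48.6, 46.5, 50.3 and 55.1 TPM in K5-Tert tumours and 44.8, 48.2, 61.3 and 47.9 TPM in Braf tumours (log2 0.00, adjusted p = 0.9886). Levels of Nop10 and Nhp2 overlapped between the groups, and their fold changes lay 0.62 and 0.47 above the all-gene median, the highest of the snoRNP members. Whether Gar1 differs from them in its response was not tested.

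Among the nucleolar phosphoproteins, Nolc1, a chaperone of snoRNPs, was at 23.7, 10.6, 19.0 and 12.3 TPM in K5-Tert tumours, below each of the Braf tumours at 24.2, 29.9, 33.6 and 27.9 TPM. It fell by 0.84 (SE 0.26, adjusted p = 0.03044, limma) and did not pass after TMM-type scaling (log2 -0.34, adjusted p = 0.06708). Ncl was at 48.3 to 100 TPM in K5-Tert tumours and 83.7 to 111 TPM in Braf tumours (log2 -0.54, adjusted p = 0.1176). Npm1 was at 141 to 237 TPM in K5-Tert tumours and 165 to 238 TPM in Braf tumours (log2 -0.18, adjusted p = 0.6094). Both pairs of groups overlapped. The RNA helicase Ddx21, which acts in rRNA transcription and processing, was at 26.7, 8.18, 26.4 and 17.1 TPM in K5-Tert tumours and 26.6 to 39.1 TPM in Braf tumours (log2 -0.85, adjusted p = 0.05524).

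The SSU processome assembles on the nascent precursor and matures the 40S subunit. Wdr43, the counterpart of yeast Utp5 in its early subcomplex, was at 30.4, 13.0, 19.3 and 10.9 TPM in K5-Tert tumours, against 25.8, 35.7, 36.8 and 32.9 TPM in Braf tumours. It fell by 0.89 (SE 0.26, adjusted p = 0.02244, limma). Utp20, a large helical-repeat scaffold, was at 11.2, 3.76, 6.62 and 4.27 TPM in K5-Tert tumours, against 9.29, 11.5, 14.2 and 12.8 TPM in Braf tumours, and fell by 0.89 (SE 0.29, adjusted p = 0.036). For both genes K5-Tert tumour 1 lay within the range of the Braf tumours and the other 3 below it, and after TMM-type scaling neither passed (Wdr43 log2 -0.39, adjusted p = 0.08215, and Utp20 log2 -0.43, adjusted p = 0.07937). The other tested members of this role did not pass as deposited. These were Wdr75, the counterpart of yeast Utp17 (log2 -0.79, adjusted p = 0.07437), Nop14 (-0.66, 0.07734) and Rrp9, a protein of the U3 snoRNP (-0.48, 0.147). With the filter at 1 TPM, where 15.7% of 14390 genes were lower and 0.417% higher, 4 of 33 members were lower: Wdr43, Utp20, Rrs1 and Nolc1. The low members Rrp12 (log2 -0.55), Bysl (-0.41), Heatr1 (-0.39) and Utp15 (-0.37) did not pass there.

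Of the 60S factors, Rrs1, which in yeast brings the 5S ribonucleoprotein into the precursor, was at 22.5, 8.74, 13.8 and 9.86 TPM in K5-Tert tumours, against 20.6, 23.5, 29.8 and 24.9 TPM in Braf tumours. It fell by 0.88 (SE 0.26, adjusted p = 0.02314, limma). Rrs1 was the 1 member lower both as deposited and after TMM-type scaling, and K5-Tert tumour 1 again lay within the range of the Braf tumours. The members of the PeBoW complex, which is needed to process the 32S precursor, differed in their values. Bop1 was at 8.67 to 17.1 TPM in K5-Tert tumours and 18.5 to 23.5 TPM in Braf tumours (log2 -0.53, adjusted p = 0.1148), Pes1 at 19.0 to 27.5 TPM and 24.2 to 31.0 TPM (log2 -0.18, adjusted p = 0.5267), and Wdr12 at 2.39 to 4.22 TPM and 4.58 to 7.96 TPM (log2 -0.80, adjusted p = 0.05841 with the filter at 1 TPM). The groups overlapped for Pes1 alone of these 3. The rRNA methyltransferase Nop2 was at 9.48 to 10.5 TPM in K5-Tert tumours and 12.9 to 17.5 TPM in Braf tumours, a narrow separation that did not pass (log2 -0.54, adjusted p = 0.08398). The helicase Ddx18 (log2 -0.77, adjusted p = 0.05196), the nucleolar GTPase Gnl3, nucleostemin (-0.56, 0.08268), and Nop16 (-0.28, 0.4731) did not pass, nor did Rrp1b (-0.83, 0.05323) and Nip7 (-0.07, 0.8767) with the filter at 1 TPM.

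**Figure D3:**
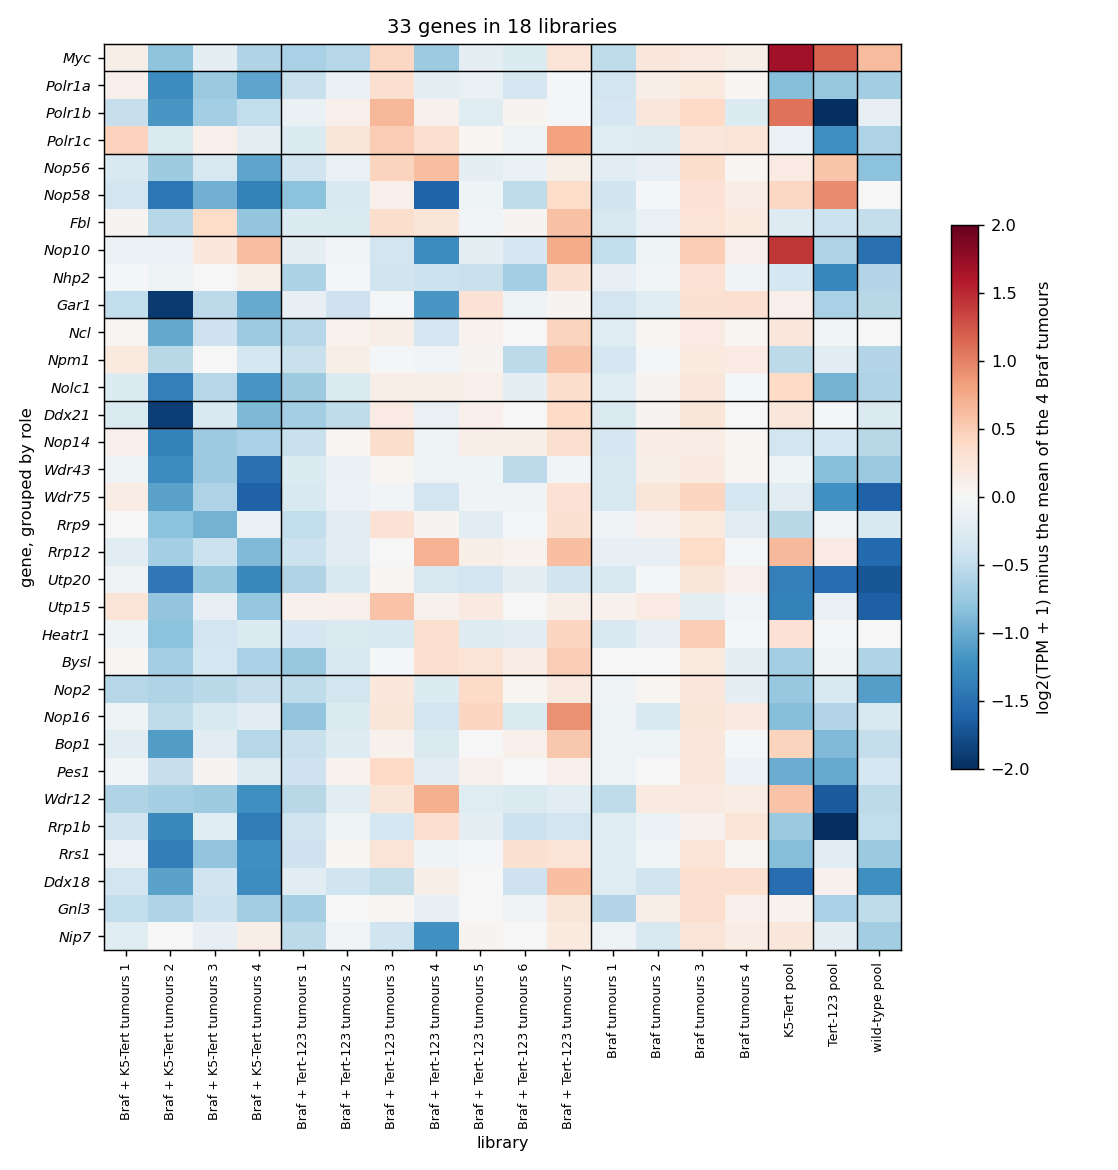
Each row is 1 of the 33 genes, grouped by role, and each column 1 library. Colour gives log2(TPM + 1) minus the mean of the 4 Braf tumours, from blue (lower) over white to red (higher), cut off at 2 in each direction. K5-Tert tumours 2 and 4 are blue in most rows, Nop10 and Nhp2 are near white or red in the K5-Tert tumours, and Myc is red in the pools.

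Transcript length ran with these fold changes. Across the 25 members the fold change and the length of the longest annotated transcript had a Spearman rho of -0.62, and across 7447 tested genes one of -0.41. Genes share the libraries and are not replicates, so no p is given. The 8 shortest members (1042 to 1756 nt, Nhp2 and Nop10 among them) had a median fold change of -0.20, where all genes of that length range had -0.26. The 9 of middle length (1877 to 2923 nt) had -0.56, where all genes had -0.42, and the 8 longest (2953 to 9507 nt, Nop58, Utp20 and Polr1a among them) had -0.84, where all genes had -0.61. Of the 6 members called lower, 4 were among the longest, and Gar1 (1271 nt) and Rrs1 (2048 nt) were not. After removal of the mean and the length trend of every library, Rrs1 was the 1 member lower (log2 -0.50, adjusted p = 0.03094, limma), as 425 of all 7498 genes were, and 0 members and 305 genes were higher, while Nop58 stood at -0.22 (adjusted p = 0.6763) and Utp20 at -0.10 (adjusted p = 0.6798).

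**Figure D4:**
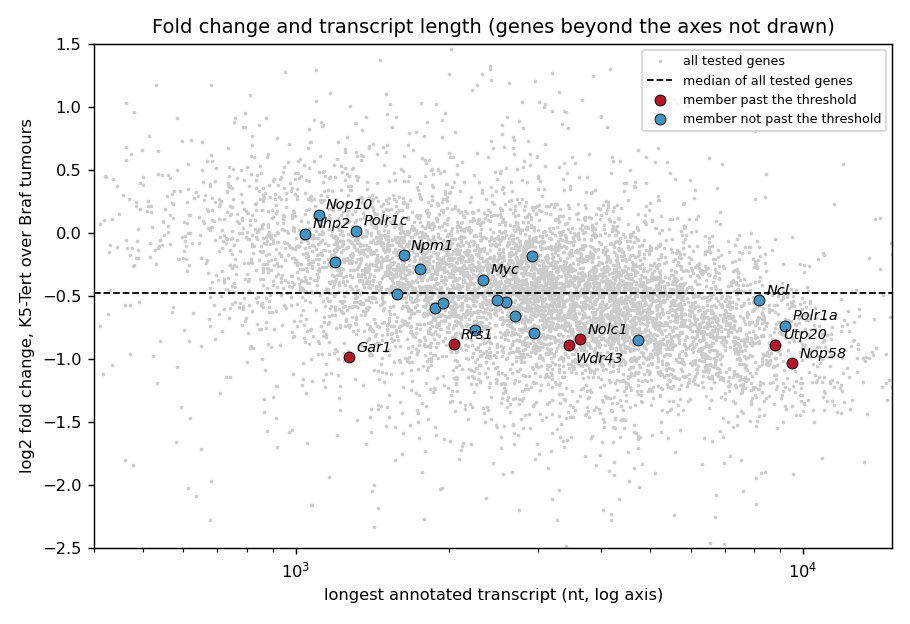
Log2 fold change of K5-Tert over Braf tumours against the length of the longest annotated transcript (nt, log axis). Members past the threshold are red, other tested members blue and all tested genes grey, with the median of all genes dashed. The short members Nop10, Nhp2 and Polr1c lie near 0 and the long members Nop58, Utp20 and Polr1a between -0.74 and -1.03, and the cloud of all genes slopes the same way.

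Xist, the RNA of the inactive X chromosome, was at 0.03, 0, 52.5 and 0 TPM in K5-Tert tumours and 64.0 to 89.9 TPM in Braf tumours, so expression linked to sex ran partly with the comparison. It was at 54.5 to 88.1 TPM in Tert-123 tumours 1 to 4 and 0.06, 0.03 and 0 TPM in tumours 5, 6 and 7. The K5-Tert, Tert-123 and wild-type pools held 1.29, 10.9 and 43.2 TPM, so the other comparisons were also mixed. With Xist as a covariate in K5-Tert against Braf tumours 0 members were lower, and 225 of all 7498 genes were. Tumours against pools were not fitted with Xist. The count of members also turned on single libraries, and that of all genes moved with it. Without K5-Tert tumour 1, 15 members and 3520 of all genes were lower. Without any 1 of K5-Tert tumours 2 and 4 and Braf tumours 2, 3 and 4, 0 members and 397 to 736 of all genes were.

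Setting Tert-123 tumours against Braf tumours addresses the effect of the Tert promoter change, with the same Braf tumours as in the comparison above. limma called 0 of the 25 members higher and 0 lower, where 0% of all 7498 genes were called in either direction. The members' smallest adjusted p was 0.9997, and 0 of them had an unadjusted p under 0.05, as 50 of all genes did. With TMM-type scaling and with quantile normalization 1 member had an unadjusted p under 0.05, with the length trend removed 2 had, and none was called. Of all 7498 genes 154, 237 and 193 had such a p in these settings, in that order. In simulated data the fit recovered a median of 41.5% of changes of 1 on the log2 scale in this comparison. Fold changes ran from -0.41 for Nop58 to 0.22 for Polr1c, with a median of -0.07 and standard errors from 0.19 (Pes1) to 0.31 (Nop58). Nop58 was at 11.03 to 46.2 TPM (median 28.5) in Tert-123 tumours and 26.6 to 43.4 TPM in Braf tumours, and Polr1c at 17.7 to 38.2 TPM (median 25.8) and 17.9 to 26.1 TPM. Nhp2 had 5 of 7 Tert-123 tumours below every Braf tumour (31.1 to 62.2 TPM, median 37.1, against 44.8 to 61.3 TPM), a fold change of -0.33. In none of the 33 members did the groups separate, as they did downward for 0.08% and upward for 0.0267% of all genes.

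The alleles themselves were set against each other in K5-Tert and Tert-123 tumours. This comparison shares the K5-Tert tumours with the first comparison. Of the 25 members 7 were lower in K5-Tert tumours and 0 higher, where 29.5% of all genes tested were lower and 0.76% higher, and the medians were -0.51 for the members and -0.48 for all genes. Rrs1 was at 8.74 to 22.5 TPM in K5-Tert tumours and 18.2 to 30.4 TPM (median 25.2) in Tert-123 tumours, and fell by 0.93 (SE 0.23, adjusted p = 0.009198, limma). The other 6 were Nolc1 (log2 -0.77), Ddx21 (-0.75), Wdr43 (-0.73), Nop14 (-0.72), Ddx18 (-0.66) and Nop56 (-0.64). In none of these 7 did the groups separate. With the filter at 1 TPM, where 20.6% of genes were lower and 0.493% higher, 7 of 33 members were lower, among them Polr1b (2.96 ± 0.814 TPM, n = 4, against 5.80 ± 1.54 TPM, n = 7, log2 -0.78, adjusted p = 0.02919) and Wdr12 (3.60 ± 0.825 TPM against 6.78 ± 2.57 TPM, log2 -0.72, adjusted p = 0.048). Polr1b and Wdr12 were the 2 of 33 members lower in every K5-Tert tumour than in every Tert-123 tumour. Neither was among the 7498 genes that passed the main filter, of which 5.25% separated in this way. Of the 25 members that passed it, 0 did.

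After TMM-type scaling Rrs1 remained lower (log2 -0.44, adjusted p = 0.01558, limma) and Nhp2 was higher (log2 0.85, adjusted p = 0.01128), where 8.75% of genes were lower and 7.27% higher. As deposited Nhp2 was at 46.5 to 55.1 TPM in K5-Tert tumours and 31.1 to 62.2 TPM (median 37.1) in Tert-123 tumours (log2 0.33, adjusted p = 0.2065). Nop10 lay at 34.3 to 57.4 TPM and 15.02 to 63.3 TPM (median 32.7), with log2 0.38 as deposited (adjusted p = 0.2978) and 0.90 after TMM-type scaling (adjusted p = 0.05573). Without K5-Tert tumour 1, 15 members and 3938 of all 7498 genes were lower. Without tumour 2 it was 1 member and 552 genes, and without tumour 4 it was 1 member and 558 genes. Without Tert-123 tumour 3 or 7 it was 3 members, with 1507 and 1676 genes, and without Tert-123 tumour 5 it was 4 members and 1653 genes.

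Setting the 15 tumours against the 3 pools addresses the effect of the Braf mutation, in a fit that also holds terms for the Tert alleles. Myc and Nop58 fell, and Utp20, Polr1c, Pes1 and Nhp2 rose. Of 26 members tested these 4 were higher in tumours and 2 lower, where 15.4% of all 7825 genes tested were higher and 10% lower (limma, adjusted p under 0.05), so the shares called were near those of all genes. The median fold change was 0.22 for the members and 0.07 for all genes, and 19 of the 26 were positive. The pools are 1 library for each allele, and tumours and pools differed in the thyrocyte, alveolar and other cell markers given above. The spread in this fit therefore comes mostly from the tumours, and the pools are assumed to vary like them. The alternative settings counted below reuse the same libraries, so they are not independent of each other. The filter of 10 TPM in 4 libraries left out any gene that reached 10 TPM only in the 3 pools. A gene under 10 TPM in every pool, such as Utp20 or Polr1a, met it through the tumours alone.

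Myc averaged 21 TPM in the 15 tumours and 56.5 TPM in the 3 pools, and fell by 1.37 on the log2 scale (SE 0.28, adjusted p = 0.000853, limma). All 15 tumours lay below all 3 pools, as was so for 5.69% of all genes tested (5.71% lay above all pools in every tumour, and 0 members). The call was kept in 30 of 30 alternative settings, with fold changes from -1.72 to -0.67 and adjusted p of at most 0.01644. Without the K5-Tert pool, which held the most Myc, the fold change was -1.04, and with library weights it was -0.67. Without the Tert-123 pool, which had the highest T cell and endothelial markers of the pools, it was -1.34. Markers of C cells and parathyroid summed to 267, 2694 and 414 TPM in the K5-Tert, Tert-123 and wild-type pools. In tumours they summed to 2.78 to 72.3 TPM. The pools left in that fit therefore still held markers of other cells.

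Nop58 was the other member that fell. Its tumour levels were 12.4 to 27.4 TPM with K5-Tert, 11.03 to 46.2 TPM (median 28.5) with Tert-123C>T and 26.6 to 43.4 TPM with Braf alone, against 47.9, 69.0 and 35.5 TPM in the K5-Tert, Tert-123 and wild-type pools. The fold change was -0.94 (SE 0.33, adjusted p = 0.04111, limma). Tumours and pools overlapped, 11 of 15 tumours lying below all pools, and the call was kept in 18 of 30 settings. It did not pass without the K5-Tert pool (log2 -0.70, adjusted p = 0.1913) or without the Tert-123 pool (log2 -0.72, adjusted p = 0.2298).

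Among the members that rose, Utp20 had the largest change. It was at 3.76 to 11.2 TPM in K5-Tert tumours, 7.47 to 12.2 TPM (median 9.28) in Tert-123 tumours and 9.29 to 14.2 TPM in Braf tumours, against 3.97, 3.45 and 2.93 TPM in the K5-Tert, Tert-123 and wild-type pools. All tumours but K5-Tert tumour 2 lay above the pools, and the fold change was 1.14 (SE 0.30, adjusted p = 0.00645, limma), which did not pass without the wild-type pool (log2 0.87, adjusted p = 0.08665) or with quantile normalization (log2 0.42, adjusted p = 0.05249). With every pool under 10 TPM, Utp20 met the filter through the tumours alone. It also passed with the filter at 1 TPM (log2 1.14, adjusted p = 0.004081 in limma).

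Pes1 was at 19.0 to 27.5 TPM in K5-Tert tumours, 19.6 to 35.1 TPM (median 27.9) in Tert-123 tumours and 24.2 to 31.0 TPM in Braf tumours, against 12.9, 12.6 and 20.5 TPM in the pools in the same order of alleles. It rose by 0.74 (SE 0.20, adjusted p = 0.009851, limma), with 13 of 15 tumours above all pools, and did not pass without the Tert-123 pool (log2 0.58, adjusted p = 0.1041). Polr1c rose by 0.76 (SE 0.26, adjusted p = 0.03192), with tumours at 17.4 to 38.2 TPM and pools at 19.7, 8.63 and 13.6 TPM. Nhp2 rose by 0.65 (SE 0.21, adjusted p = 0.02802), with tumours at 31.1 to 62.2 TPM and pools at 39.0, 19.8 and 32.95 TPM. For each of these 2 genes 10 of 15 tumours lay above all pools. Neither passed without the Tert-123 pool (Polr1c log2 0.38, adjusted p = 0.383, and Nhp2 log2 0.47, adjusted p = 0.2148), nor without the wild-type pool (log2 0.82, adjusted p = 0.07684, and 0.67, adjusted p = 0.08114). With the length trend removed neither passed (Polr1c log2 0.38, adjusted p = 0.07299, and Nhp2 log2 0.21, adjusted p = 0.3002), and Nhp2 did not pass with the Braf mutation as the only term (log2 0.59, adjusted p = 0.06698).

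With the filter at 1 TPM, where 14.2% of 14711 genes were higher and 10.3% lower, 6 of 33 members were higher and 2 lower. The further 2 were Utp15, a processome protein (log2 0.95, adjusted p = 0.0134), at 2.41 to 7.75 TPM in tumours and 1.30, 4.36 and 0.89 TPM in the pools, and Rrp1b (log2 1.09, adjusted p = 0.03777), at 1.92 to 8.71 TPM in tumours and 3.60, 0 and 4.42 TPM in the pools. After TMM-type scaling, where 21.6% of genes were higher and 18.8% lower, 6 of 26 members were higher and 2 lower, Wdr75 (log2 0.72, adjusted p = 0.01919) and Polr1a (log2 0.46, adjusted p = 0.0140) beside the first 4. The remaining tested members ran from -0.27 for Ddx21 to 0.73 for Wdr75 as deposited. All 7 tested 60S factors had positive fold changes, from 0.14 (Bop1) to 0.74 (Pes1), of which Pes1 passed. With the length trend removed Bop1 (-0.06) and Gnl3 (-0.11) turned negative.

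**Figure D5:**
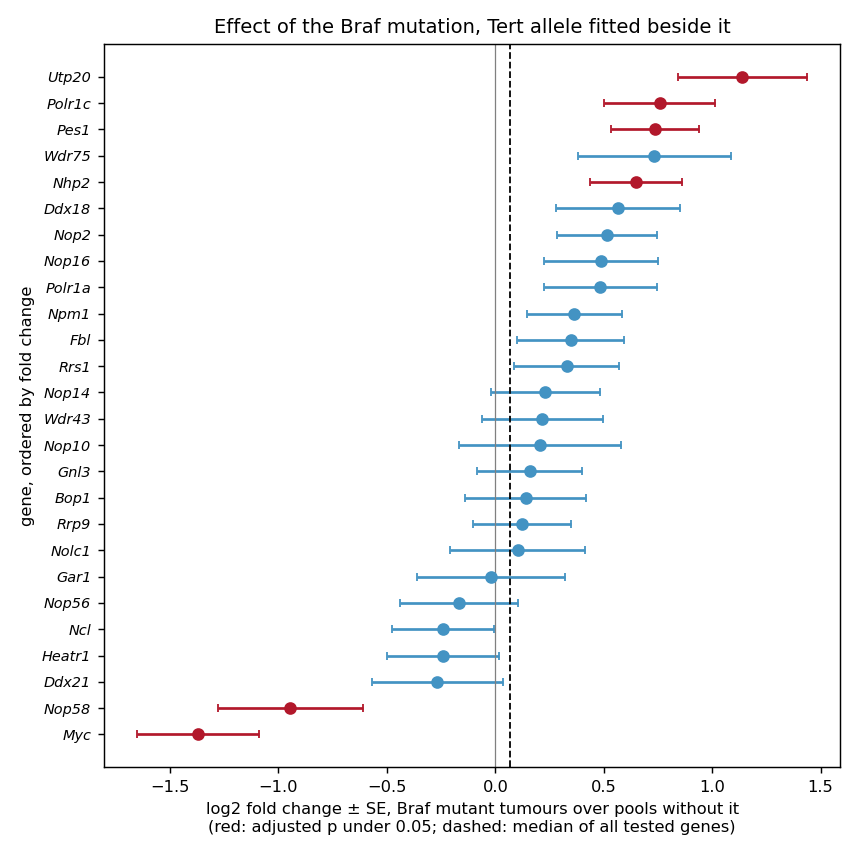
Log2 fold change ± SE of the 15 tumours with BrafV600E over the 3 pools without it, for the 26 tested members, in the fit with terms for the Tert alleles. Members past the threshold are red, and the dashed line is the median of all genes (0.07). Myc and Nop58 lie to the left, and Utp20, Polr1c, Pes1 and Nhp2 to the right.

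Promoters of 27 of the 33 members were matched by symbol in RefSeq (GRCm38.p6), each from 250 bases before to 50 after the gene's start. They were searched on both strands for CACGTG, the site that Myc and Max are known to bind, and for its variant CACGCG, which reads CGCGTG on the other strand. The searches were separate, and matches may share bases. CACGTG was found for 4 of the 27 (14.8%), as for 12.3% of 6187 tested genes and 8.09% of 27025 genes with a promoter. The variant was found for 10 of the 27 (37.0%), as for 21.1% and 10.5%. The 4 with CACGTG were Utp20, Pes1, Wdr43 and Nop2. Of these, Utp20 and Pes1 were called higher in tumours than in pools, and Wdr43 and Nop2 were not called. Myc was lower in tumours, and whether it acts on these genes was not tested. The promoters of these 4 are shown because they hold the Myc site. Those of Polr1c and Nhp2, the other 2 members higher in tumours, hold the variant alone and are shown beside them. Capitals mark both motifs in either orientation, and each line reads 5′ to 3′ along the gene's strand.
Utp20: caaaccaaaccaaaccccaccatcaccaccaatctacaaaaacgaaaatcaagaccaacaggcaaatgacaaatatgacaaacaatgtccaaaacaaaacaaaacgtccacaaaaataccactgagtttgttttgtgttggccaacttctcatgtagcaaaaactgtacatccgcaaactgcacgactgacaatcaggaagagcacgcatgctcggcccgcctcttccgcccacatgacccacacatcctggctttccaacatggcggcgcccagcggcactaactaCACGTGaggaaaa
Pes1: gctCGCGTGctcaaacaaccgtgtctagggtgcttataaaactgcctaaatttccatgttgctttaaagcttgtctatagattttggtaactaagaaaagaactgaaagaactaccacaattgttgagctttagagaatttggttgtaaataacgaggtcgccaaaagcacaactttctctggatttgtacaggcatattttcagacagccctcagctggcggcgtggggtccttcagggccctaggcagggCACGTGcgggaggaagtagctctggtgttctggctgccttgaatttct
Wdr43: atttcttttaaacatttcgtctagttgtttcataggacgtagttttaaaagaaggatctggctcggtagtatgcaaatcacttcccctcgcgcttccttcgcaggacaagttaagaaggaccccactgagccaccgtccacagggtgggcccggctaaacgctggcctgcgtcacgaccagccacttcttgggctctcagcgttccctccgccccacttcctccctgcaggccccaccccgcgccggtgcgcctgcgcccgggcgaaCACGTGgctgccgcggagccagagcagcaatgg
Nop2: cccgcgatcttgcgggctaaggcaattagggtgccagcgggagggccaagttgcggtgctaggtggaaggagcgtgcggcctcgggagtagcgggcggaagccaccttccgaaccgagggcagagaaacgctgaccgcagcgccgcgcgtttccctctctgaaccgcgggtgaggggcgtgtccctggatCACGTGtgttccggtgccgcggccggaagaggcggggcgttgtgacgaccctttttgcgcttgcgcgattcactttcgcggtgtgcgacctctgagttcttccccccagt
Polr1c: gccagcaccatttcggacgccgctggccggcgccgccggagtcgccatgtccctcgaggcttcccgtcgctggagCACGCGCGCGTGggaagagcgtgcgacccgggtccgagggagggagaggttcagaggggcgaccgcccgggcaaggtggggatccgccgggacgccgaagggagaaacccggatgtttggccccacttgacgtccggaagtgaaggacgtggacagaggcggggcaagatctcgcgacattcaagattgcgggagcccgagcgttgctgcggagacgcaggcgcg
Nhp2: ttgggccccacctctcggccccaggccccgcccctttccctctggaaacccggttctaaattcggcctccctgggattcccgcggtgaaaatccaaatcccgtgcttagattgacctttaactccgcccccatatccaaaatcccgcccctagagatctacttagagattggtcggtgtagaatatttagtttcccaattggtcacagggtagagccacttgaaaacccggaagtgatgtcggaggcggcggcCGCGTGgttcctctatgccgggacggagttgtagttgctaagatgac
Utp20 lies at chr10:88826765-88827064 on the minus strand, Pes1 at chr11:3963725-3964024 on the plus strand and Wdr43 at chr17:71615965-71616264 on the plus strand. Nop2 lies at chr6:125131633-125131932 on the plus strand, Polr1c at chr17:46247996-46248295 on the minus strand and Nhp2 at chr11:51619523-51619822 on the plus strand. Counting the first transcribed base as 1, CACGTG began at base 38 in Utp20, 3 in Pes1 and 18 in Wdr43, all within the transcribed part, and at base -60 in Nop2, upstream of the start. The promoter of Polr1c holds the variant in both orientations side by side. The promoter of Nop58, which was lower in tumours, holds neither motif in this window. A match describes the sequence and is no evidence of binding.

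Some members also hold snoRNA genes within their bounds. In the GENCODE M21 annotation 5 of the 33 members (15.2%) have snoRNA genes within their bounds, as do 170 of 7658 tested protein-coding genes (2.22%). Nop56 holds 5, Nop58 holds 4, and Ncl, Wdr43 and Gnl3 hold 3 each. In K5-Tert against Braf tumours Nop58 and Wdr43 of these 5 were lower, beside 21.9% of all genes tested. In tumours against pools Nop58 was lower, beside 10% of all genes tested. The files do not say whether reads of the snoRNAs were counted with their host genes.

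Other genes of the pathway were read from lists of each role. In K5-Tert against Braf tumours 0 genes of any list were higher. Lower were 14 of 41 tested SSU processome and 40S genes (median fold change -0.58), 10 of 43 tested 60S genes (-0.54), 6 of 13 tested genes of RNA polymerase I and its factors (-0.73), 2 of 6 tested snoRNP genes (-0.29) and 6 of 17 tested genes of the RNA exosome and RNase MRP (-0.58), beside -0.48 and 21.9% for all genes. Named by smallest p, the 40S genes were Tsr3, an 18S rRNA modifying enzyme (11.7 ± 2.76 TPM in K5-Tert and 23.2 ± 5.93 TPM in Braf tumours, SD, n = 4 each), Wdr46 (12.2 ± 5.22 and 23.5 ± 0.698 TPM) and Aatf (25.2 ± 12.1 and 51.0 ± 11.7 TPM). The 60S genes were the GTPases Lsg1 (log2 -0.92) and Gnl2 (-0.86) and the nucleolar protein Surf6 (8.13 ± 3.04 and 18.8 ± 0.798 TPM, log2 -1.19). Of the RNA polymerase I factors Ubtf, which opens rDNA to transcription, held 42.1, 19.7, 29.6 and 19.3 TPM in K5-Tert tumours and 54.8, 52.0, 56.9 and 52.6 TPM in Braf tumours, with no overlap (log2 -1.01, adjusted p = 0.01686, limma). Ttf1, the terminator of rDNA transcription, was at log2 -1.18 and Taf1d, a subunit of the promoter factor SL1, at -0.83. The snoRNP assembly factors were Znhit6 (log2 -1.39) and Rpap3 (-0.73). After TMM-type scaling Aatf, Surf6, Ubtf, Ttf1 and Znhit6 still passed, and Tsr3, Wdr46, Lsg1, Gnl2, Taf1d and Rpap3 did not. In K5-Tert tumours Ttf1 was at most 7.88 TPM and Znhit6 at most 6.79 TPM, so both met the filter through the other tumours. Both also passed with the filter at 1 TPM and with none.

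Exosc7, a ring subunit of the RNA exosome, which trims rRNA precursors, was lower in K5-Tert than in Braf tumours and higher in tumours than in pools. It was at 26.4, 31.3, 13.9 and 17.0 TPM in K5-Tert tumours, 29.9 to 63.3 TPM (median 38.5) in Tert-123 tumours and 47.1, 42.9, 89.6 and 126 TPM in Braf tumours, against 12.1, 6.10 and 21.6 TPM in the K5-Tert, Tert-123 and wild-type pools. K5-Tert tumours lay below every Braf tumour (log2 -1.67, SE 0.33, adjusted p = 0.004998, limma), a call kept in 19 of 21 settings. In tumours against pools it was at log2 1.66 (SE 0.33, adjusted p = 0.0005772), kept in 30 of 30 settings. Rpp25l (7.26 ± 1.68 TPM in K5-Tert and 15.5 ± 3.33 TPM in Braf tumours) and the nuclease Dis3 (log2 -0.97) were also lower in K5-Tert tumours as deposited, and did not pass after TMM-type scaling (Rpp25l log2 -0.50, adjusted p = 0.2652, and Dis3 log2 -0.51, adjusted p = 0.06212). In K5-Tert tumours they were at most 8.72 and 9.62 TPM, so both met the filter through the other tumours. With no filter Dis3 did not pass (adjusted p = 0.0526 in limma).

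In tumours against pools 10 of 43 tested 60S genes were higher and 0 lower (median fold change 0.41), 7 of 17 exosome and RNase MRP genes were higher and 0 lower (0.48), and 4 of 41 SSU processome and 40S genes were higher and 1 lower (0.27), beside 15.4% higher, 10% lower and a median of 0.07 for all genes. One gene of 13 for RNA polymerase I, its subunit Cd3eap (log2 1.25), and 1 of 6 snoRNP genes, the ATPase Ruvbl2 (log2 0.69), were higher and 0 lower. Ruvbl2 did not pass without the Tert-123 pool (log2 0.70, adjusted p = 0.07005) or without the wild-type pool (log2 0.58, adjusted p = 0.1321). Wdr18, a protein of the complex that releases late pre-60S particles, was at 12.7 ± 1.58 TPM in the 15 tumours and 4.15 ± 1.98 TPM in the 3 pools (SD, log2 1.51, adjusted p = 4.932e-05, limma), and tumours (10.5 to 16.8 TPM) and pools (1.89 to 5.53 TPM) did not overlap. Wdr18 and Cd3eap (4.51 to 6.57 TPM in pools) met the filter through the tumours alone. Both calls were kept in 30 of 30 settings, no filter among them. The 60S factors Rrp15 (log2 1.54) and Nsa2 (1.19), the 40S factors Emg1 (1.25) and Tsr3 (1.23), and Exosc8 (1.72) were higher as well. Without the Tert-123 pool Tsr3 did not pass (log2 0.63, adjusted p = 0.1014). Imp3 of the U3 snoRNP and Exosc5 also passed, and each was listed at 0 in at least 1 pool, with pool levels of 0 to 49.9 TPM and 0 to 11.01 TPM, and tumour levels of 36.0 to 77.1 TPM and 6.97 to 21.5 TPM.

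The Myc network was read in the same way. Mycn, the paralogue of Myc, was at 7.93, 6.16, 3.49 and 5.22 TPM in K5-Tert tumours, 8.31 to 20.7 TPM (median 12.0) in Tert-123 tumours and 18.9, 15.75, 18.96 and 17.25 TPM in Braf tumours, against 6.91, 5.57 and 1.87 TPM in the pools. All 4 K5-Tert tumours lay below all 4 Braf tumours (log2 -1.52, SE 0.29, adjusted p = 0.004456, limma). Since all 4 K5-Tert tumours were under 10 TPM, Mycn met the filter through the other tumours. The call was kept in 18 of 21 settings, among them the filter at 1 TPM and no filter. It was lost with quantile normalization (log2 -0.93, adjusted p = 0.07019) and without K5-Tert tumours 2 and 4 (log2 -1.56, adjusted p = 0.06526). Without tumours 2, 3 and 4 the fold change was -1.06. In tumours against pools Mycn rose by 1.15 (SE 0.38, adjusted p = 0.02737), while Myc fell. Mycn was under 10 TPM in every pool, so here it met the filter through the tumours alone. Without the wild-type pool the rise did not pass (log2 0.41, adjusted p = 0.4795).

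Max, the dimer partner, was at 42.7 ± 11.95 TPM in the 15 tumours and 77.7 ± 23.2 TPM in the 3 pools (SD) and fell by 0.90 (adjusted p = 0.01551, limma), and Huwe1, a ubiquitin ligase with Myc proteins among its substrates, fell by 0.97 (adjusted p = 0.03757). Neither passed without the K5-Tert pool (log2 -0.48, adjusted p = 0.2028, and -0.42, adjusted p = 0.3908). Mlxip (log2 -1.12) and Mga (-0.91), both partners in the wider network of Max and Mlx, were lower in K5-Tert than in Braf tumours as deposited. Mga was kept in 8 of 21 settings and did not pass after TMM-type scaling (log2 -0.45, adjusted p = 0.08168), and Mlxip was kept in 10 of 21. With Mycn and with Huwe1 (log2 -0.96, adjusted p = 0.04413, limma, named here after its values were seen), 4 of 11 tested network genes were lower there, beside 21.9% of all genes. Of 27 tested Myc targets outside ribosome biogenesis 0 were called in K5-Tert against Braf tumours. An unadjusted p under 0.05 was found for 4 of them and for 3038 of all 7498 genes. The targets had a median of -0.12, beside -0.48 for all genes. In tumours against pools 4 of 28 were higher and 2 lower, near the 15.4% and 10% of all genes, with the arginine methyltransferase Prmt1 at 37.4 ± 4.17 TPM in tumours and 15.2 ± 1.51 TPM in pools (log2 1.24, adjusted p = 2.319e-05), the DNA repair enzyme Apex1 at log2 1.44 and C1qbp at log2 1.05. Without the Tert-123 pool C1qbp did not pass (log2 0.88, adjusted p = 0.0511). In Tert-123 against Braf tumours limma called 0 genes of any of the 7 lists, with 1 gene at an unadjusted p under 0.05, in the exosome and RNase MRP list.

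The 3 pools hold 1 library each, so their differences have no replicate check. Of the 26 members that passed the filter over all libraries, 4 were at least 2-fold higher in the K5-Tert than in the wild-type pool and 0 at least 2-fold lower, on TPM + 1, where 13% and 4.95% of all genes were. The 4 were Nop10 (102 and 12.6 TPM), Myc (77.8 and 37.1 TPM), Wdr75 (10.1 and 3.22 TPM) and Nolc1 (38.2 and 18.5 TPM). In the Tert-123 against the wild-type pool 2 were higher and 0 lower, where 9.47% and 9.15% of all genes were, namely Nop56 (43.4 and 16.0 TPM) and Ddx18 (19.2 and 7.10 TPM). The members' median log2 ratio was 0.34 for the K5-Tert pool and 0.11 for the Tert-123 pool, where all genes had 0.37 and -0.03.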

How the data were processed

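The authors deposited 1 table of 18 libraries, which they call normalized counts. Its unit is not stated; the deposited values are treated as TPM because each column sums to 1000000, and so no interval for counting error can be given. Per the labels' protocols, RNA came from sorted cells in TRIzol, was amplified by a low input mRNA method with 14 cycles of PCR and read as pairs of 100 bp on a NovaSeq. No source used here gives the aligner, counter, genome build or annotation.

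Of 23652 entries, 26 that had turned into dates, at most 0.0455% of a library, were left out. Of the 23626 kept, 23144 matched a GENCODE M21 symbol, which gave the lengths. log2(TPM + 1) was fitted with limma 3.58.1 in R 4.3.3 (trend in the variance, two-sided, Benjamini-Hochberg adjustment, threshold 0.05), for genes with at least 10 TPM in at least 4 libraries. The comparisons between tumours came from 1 fit over 15 tumours and share its samples. Tumours and pools were fitted over 18 libraries with terms for BrafV600E and for each Tert allele. Fold changes are on the log2(TPM + 1) scale, which understates changes of low genes. Myc was also tested by exact permutation. TMM-type factors trimmed 30% of ratios and 5% of levels at each end. Other genes are named by the smallest p among those called, up to 3 per list and comparison. Python 3.11.15, numpy 2.4.6, scipy 1.17.1 and pandas 2.3.3 were used, and the fits were tested on simulated data.

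Members and lists were chosen with earlier results of these data known. Labels of groups come from the genotypes, and replicate numbers follow accession order.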

Additional observations from a re-analysis of the deposited data

Results flagged for a closer look

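In 7 of 99 groups of 4 or 7 tumours tested, 1 per member and genotype, a tumour lay far from the rest of its group by Dixon's criterion. Chance flags about 1 group in 20. Among the Braf tumours, Braf tumour 1 was low for Myc (16.26 TPM) and for Wdr12 (4.584 TPM). Among the Tert-123 tumours, tumour 7 was high for Nop10 (63.3 TPM) and Wdr75 (14.96 TPM), tumour 3 was high for Utp15 (7.747 TPM) and Polr1b (9.075 TPM), and tumour 4 was high for Rrp1b (8.709 TPM). No K5-Tert tumour was flagged for any member.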

How the results depend on the processing

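The cause of the changes below was not tested. In K5-Tert against Braf tumours, the 6 members lower became 2 with no filter, 1 with TMM-type scaling, 0 with quantile normalization, 1 with the length trend removed, 18 with library weights, 1 with only the groups compared, 0 with Xist as a covariate, 0 to 15 with 1 tumour left out, 0 without K5-Tert tumours 2 and 4 and 0 without 2, 3 and 4. With TMM-type scaling 1 was higher. With library weights 4852 of all 7498 genes were lower, and with 1 tumour left out 397 to 3520. With no filter 33 members were tested, and 1384 of 22688 genes were lower. A filter at 50 TPM leaves 3 members, none of them among those called between tumours, so its 0 is no loss of a call, here or in the next comparison.

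In K5-Tert against Tert-123 tumours, the 7 lower became 3 with no filter, 1 with TMM-type scaling, 2 rescaled without Rpph1, 1 with quantile normalization, 1 with the length trend removed, 17 with weights, 1 with only the groups compared, 4 with Xist, 1 to 15 with 1 tumour left out, and 0 without tumours 2 and 4 or 2, 3 and 4. With TMM-type scaling, without Rpph1, with quantile normalization or with the length trend removed 1 was higher in each, and with weights 2. With weights 4640 of all 7498 genes were lower. With no filter and without Rpph1 33 members were tested, and 2088 of 22688 and 1632 of 10506 genes were lower.

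In tumours against pools, the 4 higher became 1 at 50 TPM (4 members tested, Nhp2 alone of those called), 8 without Rpph1, 18 with weights, 1 to 5 with 1 library left out and 9 without K5-Tert tumours 2, 3 and 4. With weights 3327 of all 7825 genes were higher. Without Rpph1 33 members were tested, and 2257 of 10819 genes were higher. With the length trend removed 4 were higher, but not the same 4: Utp20 and Pes1 were called beside Polr1a and Wdr75. The 2 lower became 1 with no filter, 0 at 50 TPM, where neither was tested, 1 with weights, 1 with BrafV600E as the only term, 1 to 2 with 1 library left out, and 1 without tumours 2 and 4 or 2, 3 and 4.

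For Myc, K5-Tert minus Braf tumours turned to 0.14 with TMM-type scaling, 0.10 with quantile normalization and 0.0523 with the length trend removed (-0.54 to -0.23 with 1 tumour left out). K5-Tert minus Tert-123 turned to 0.38, 0.35 and 0.29 under the same settings and to 0.12 without Rpph1 (-0.29 to 0.0179 with 1 tumour left out, 0.0179 being without K5-Tert tumour 2). Mga reached 0.0043 with the length trend removed, and without K5-Tert tumours 2, 3 and 4 Mlxip was at 0.0329 against Braf tumours and Nop14 at 0.0468 and Wdr43 at 0.0667 against Tert-123 tumours. That setting leaves 1 K5-Tert tumour, assumed to vary like the others. The Tert-123 against Braf counts were 0 in every setting run. No paired analysis was possible because replicate numbers follow accession order and pair no libraries. Low members under 10 TPM limit what could be tested.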
